A study of Mus musculus with 9 samples.

Results

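Captured motor neurons and whole spinal cord from wild-type mice were compared across every gene probed on one mouse expression array design. The comparison takes in 6 of the 9 arrays of the series. It sets 3 arrays of wild-type motor neurons, isolated with laser capture microdissection, in which single cells are cut out of a tissue section under a microscope, against 3 arrays of total spinal cord RNA from wild-type tissue; each sample's description speaks of a mouse in the singular. Neither group carries a mutation or a treatment that the labels name; the strain, sex and age of the mice, what D28 in the sample titles stands for, how the neurons were recognised, how many were pooled and how their RNA was amplified are not stated in the labels. The labels describe the cord arrays as total cord but give ventral spinal cord as the source of all 9 arrays. The other 3 arrays hold motor neurons from SOD1-mutant mice. They entered the filter on dim probe sets, the choice of each gene's brightest probe set, the constant added before taking logs and an alternative fit. The labels do not say whether arrays of a group share an animal, so the p-values rest on array-to-array spread, part of which may be technical. All 45037 probe sets that are not array controls were taken, of 45101 in the file, and 27022 were bright enough to test. They stand for 12983 named genes.

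Motor neurons are the large cholinergic cells of the ventral horn whose axons leave the cord and make muscle contract. They arise under a set of homeobox transcription factors, release acetylcholine, and carry very long, thick axons packed with neurofilament. Whole cord holds them as a small minority among glia, vessels, membranes and interneurons. A difference in this comparison is therefore between a cell class and a tissue, and in bulk RNA fewer cells of a type and less RNA per cell cannot be told apart.

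The 4 markers by which the captured cells can be checked were all higher on every motor neuron array than on any cord array. Values are signal intensities, given in the order of replicates 1, 2 and 3. Mnx1, a homeobox factor of motor neurons (probe set 1460299_at), read 306, 296 and 254 on the cord arrays and 5978, 7154 and 7513 on the motor neuron arrays. Isl1, a LIM-homeobox factor shared with sensory ganglion neurons (1450723_at), read 1603, 634 and 1050 on the cord arrays and 15527, 10799 and 13087 on the motor neuron arrays. Slc18a3, which loads acetylcholine into vesicles (1422203_at), read 2479, 2459 and 2993 on the cord arrays and 11457, 10483 and 10509 on the motor neuron arrays. Chodl, a marker of fast motor neurons (1451440_at), read 4575, 4070 and 4431 on the cord arrays and 73781, 65308 and 68657 on the motor neuron arrays. The groups did not overlap for any of the 4, as was so, with motor neurons higher, for 33.7% of all genes tested. The changes were 22.5-fold higher (log2 change 4.49 ± 0.17, SE; limma adjusted p = 2.54e-07), 12.5-fold higher (3.64 ± 0.30; limma adjusted p = 1.00e-05), 4.08-fold higher (2.03 ± 0.11; limma adjusted p = 1.24e-06) and 15.8-fold higher (3.98 ± 0.08; limma adjusted p = 4.23e-08), with n = 3 arrays in each group. Cord values of Isl1 spanned more than those of the other markers.

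**Figure D1:**
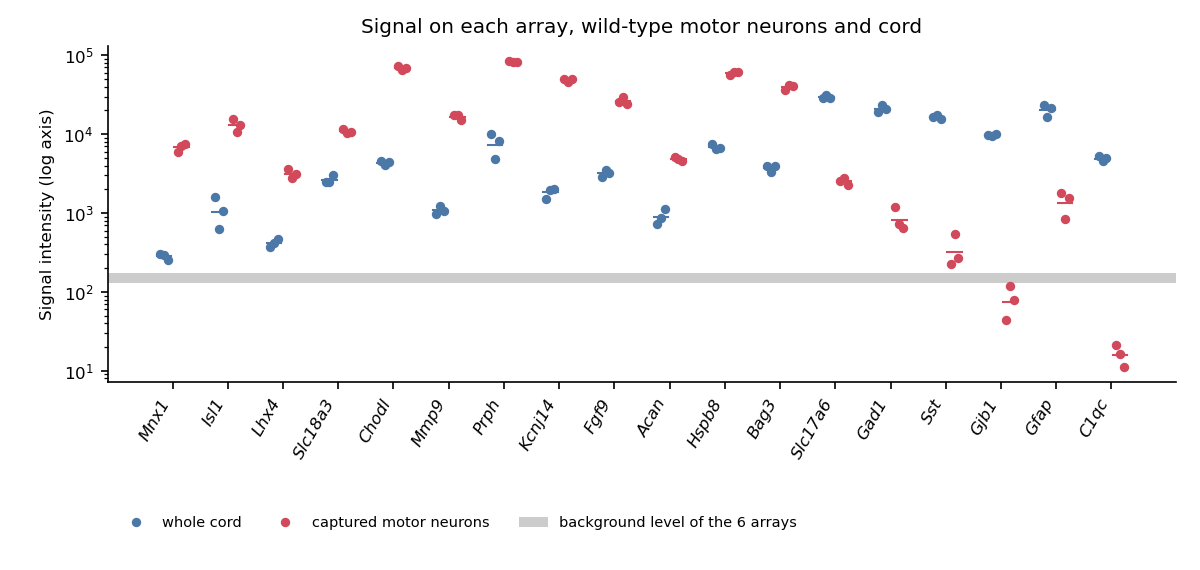
Signal intensity on a log axis of 18 genes on each of the 3 cord arrays and 3 motor neuron arrays; short lines are the geometric means of a group and the grey band spans the background levels of the 6 arrays, 131 to 173. Motor neuron genes to the left lie higher on all 3 motor neuron arrays, and interneuron, glial and microglial genes to the right lie higher on all 3 cord arrays.

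Both kinds of array were scaled by the authors to one trimmed mean of 2500, but they differed in shape. The median signal was 556 to 582 in cord and 269 to 313 in motor neurons, and 70.8 to 73.7% of probe sets stood above background in cord against 62 to 66.9% in motor neurons. The log2 ratio of the 3′ to the 5′ control probe set of Gapdh was -0.29 to -0.26 in cord and 3.64 to 4.51 in motor neurons, and that of Actb was 0.64 to 0.69 and 4.16 to 4.95. The ratio of Tfrc did not follow, at 2.55 to 3.76 in cord and 0.74 to 2.35 in motor neurons. A high ratio means more signal at the 3′ than at the 5′ end of a transcript, and its part in the changes below was not tested. The median change of all genes was -0.10 on the log2 scale with the deposited scaling, 0.26 after quantile normalization and 0.81 after centring each array on its median. Throughout, "rose" and "fell" are kept for genes that limma called in that direction, at an adjusted p under 0.05, under all 3 scalings. Fold changes are those of log2(intensity + 20.3) with the deposited scaling, which understates the change of dim genes. Each gene is represented by its brightest probe set, judged on the mean over all 3 groups, the mutant motor neurons included.

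With the deposited scaling 17700 probe sets (65.5%) were called, 6494 (24%) higher in motor neurons and 11206 (41.5%) lower. After quantile normalization 9651 were called higher and 7687 lower, and after centring 12942 and 5269, so the split moves with the scaling. Under all 3 scalings 5985 (22.1%) rose and 5230 (19.4%) fell. Counted by gene, 4041 (31.1%) were called higher and 4693 (36.1%) lower with the deposited scaling; under all 3 scalings 3727 rose (28.7%) and 1980 fell (15.3%), and these 2 shares are the background for every count of members below. Which direction held more changes of at least 4-fold also depended on the scaling: of these genes 378 rose and 1300 fell by that much as deposited, 632 and 816 after quantile normalization, and 1696 and 563 after centring. Counts by gene also moved with the probe set that stands for a gene, chosen here by a mean that includes both motor neuron groups. With the deposited scaling, the mean of all tested probe sets of a gene gave 3120 genes higher and 5569 lower. The probe set brightest in cord gave 3669 higher and 5104 lower. The signal varied more between motor neuron arrays, with a median SD of 0.27 on the log2 scale against 0.13 in cord, and 75.8% of probe sets had the larger SD in motor neurons.

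**Figure D2:**
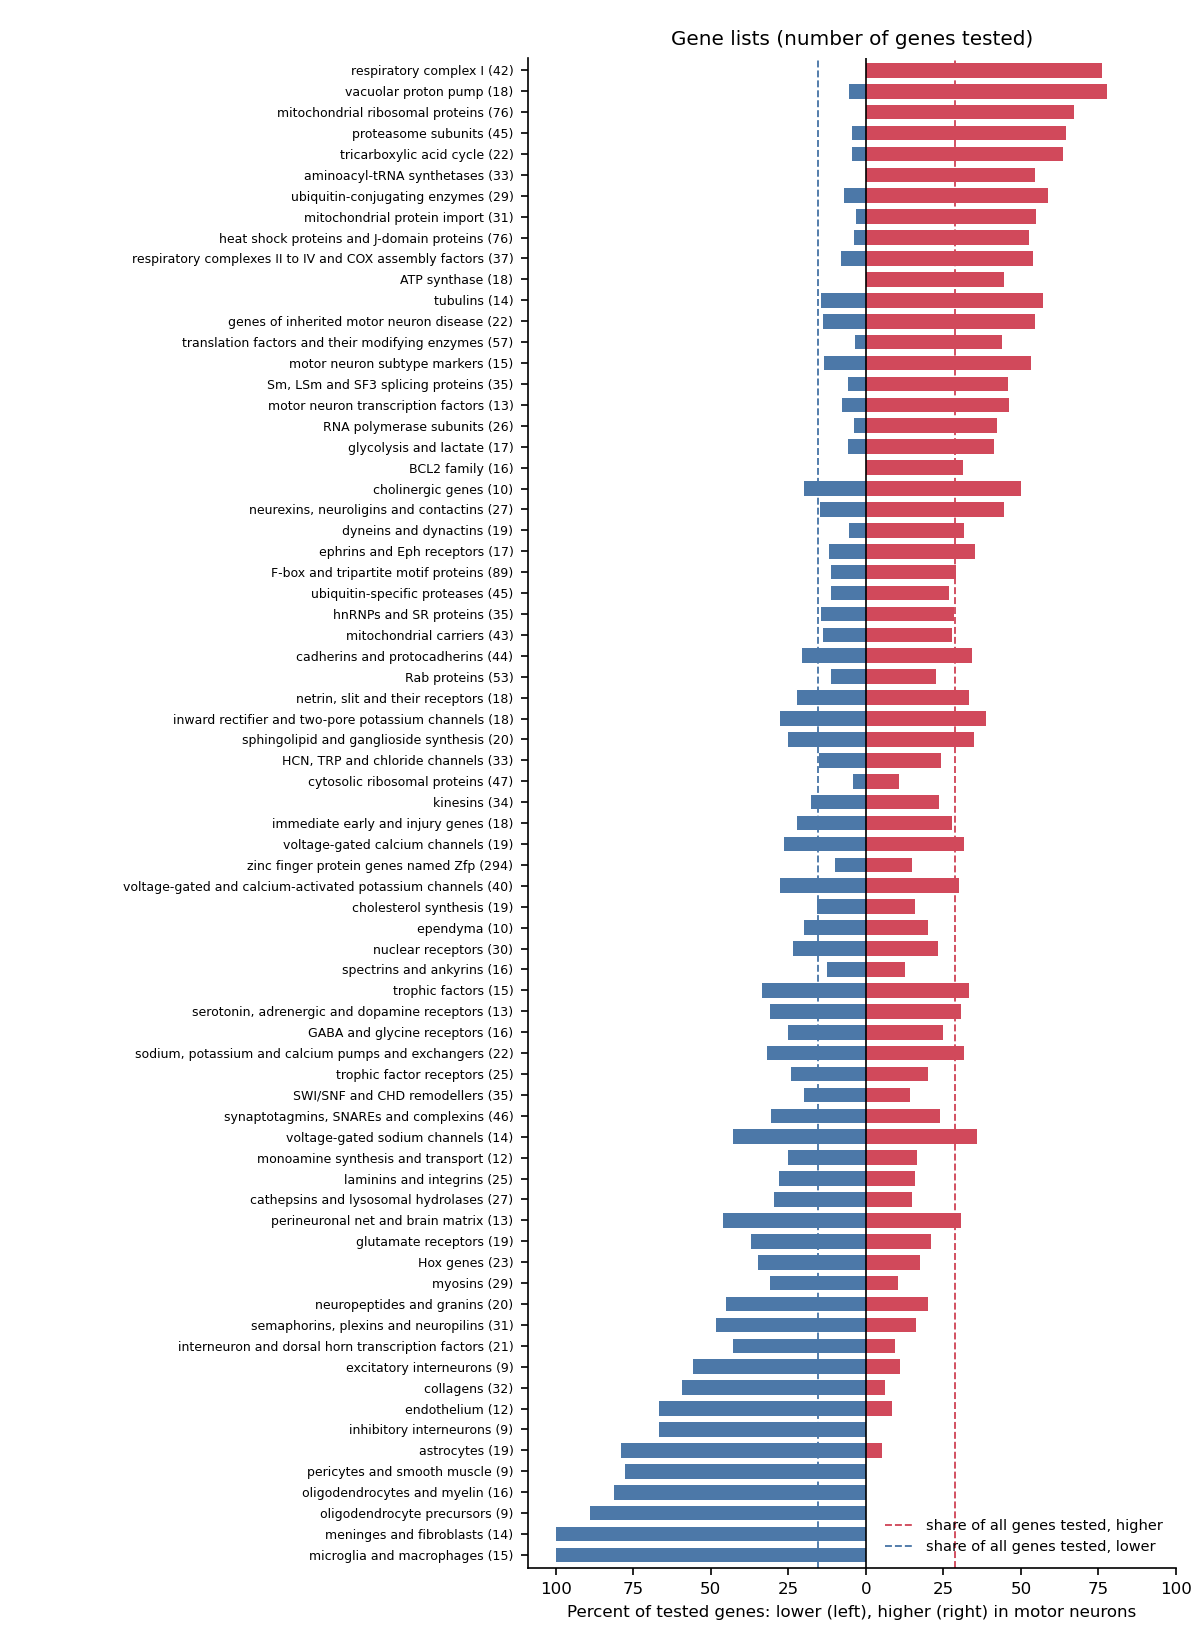
Share of the tested genes of each list (number in brackets) that rose, to the right, or fell, to the left, under all 3 scalings; dashed lines mark the shares over all genes tested, 28.7% and 15.3%. Several lists of mitochondrial genes and the lists of proteasomal and tRNA-charging genes lie at the top, and markers of glia, vessels and membranes at the bottom.

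Transcription factors of motor neuron identity did not all move one way. Of the list, 6 of 13 tested members rose and 1 fell, with a median log2 change of 0.56. A further 5 on the array were under the filter and not tested. Of these, Nkx6-1 read 539, 461 and 508 in cord and 31.1, 21.5 and 20.4 in motor neurons. Etv4 read 458, 594 and 420 in cord and 38.7, 23.4 and 55.2 in motor neurons. Onecut1 went the other way, at 45.6, 66.4 and 14.1 in cord and 121, 270 and 111 in motor neurons. Values of Onecut3 and Tbx20 overlapped between the groups. Besides Mnx1 and Isl1, Lhx4, a LIM-homeobox factor of the same program, read 371, 414 and 470 on the cord arrays and 3590, 2776 and 3097 on the motor neuron arrays and rose 2.85 on the log2 scale (limma adjusted p = 3.01e-06); 1 of its 2 probe sets was called. Isl2, the close relative of Isl1, read 1163, 375 and 927 on the cord arrays and 2536, 2444 and 2603 on the motor neuron arrays (3.34-fold higher, limma adjusted p = 0.0027). Lhx3, the usual partner of Isl1, read 359, 580 and 296 on the cord arrays and 580, 956 and 617 on the motor neuron arrays, and its difference did not pass the threshold with the deposited scaling (limma adjusted p = 0.0672), but did after quantile normalization (limma adjusted p = 0.00199). Ldb1, the adaptor that joins LIM factors into complexes, went the other way, at 2916, 3012 and 3126 on the cord arrays and 1269, 697 and 1074 on the motor neuron arrays (3.02-fold lower, limma adjusted p = 2.33e-04; 0.0677 with all 9 arrays in the fit).

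Factors of dorsal horn neurons and interneurons fell more often than they rose in the captured cells. Of that list, 2 of 21 tested members rose and 9 fell, with a median of -1.32. Zic1, a zinc finger factor of the dorsal cord, read 7545, 6354 and 7573 on the cord arrays and 179, 13.8 and 8.64 on the motor neuron arrays, so that only 1 motor neuron array stood above background. Ebf2, a helix-loop-helix factor, read 2591, 2362 and 2935 in cord and 8.4, 135 and 40.2 in motor neurons and was at least 16.6-fold lower (limma adjusted p = 4.35e-05), a bound taken against the background level because no motor neuron array passed it. Its relative Ebf3 read 6890, 7467 and 7537 in cord and 55.5, 343 and 167 in motor neurons, and all 3 of its probe sets were called lower. The exceptions were Sim1, a factor of V3 interneurons, at 94, 149 and 190 in cord and 282, 787 and 408 in motor neurons (2.95-fold higher, limma adjusted p = 0.0189; 0.0628 without cord replicate 1 and 0.0618 without motor neuron replicate 2), and Maf, a leucine zipper factor, at 3719, 2700 and 3410 in cord and 20404, 26698 and 23611 in motor neurons (7.18-fold higher, limma adjusted p = 8.08e-07). Of the 5 tested probe sets of Maf, 2 were called higher and 1 lower, and the one brightest in cord changed by 0.41 (limma adjusted p = 0.0703).

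Hox genes record position along the body axis, with low numbers near the head and high numbers at the lumbar and sacral end. Of the Hox genes 4 of 23 tested members rose and 8 fell, with a median of -0.45. On their brightest probe sets, those that fell were Hoxa3, Hoxb3, Hoxd1, Hoxd3, Hoxa5, Hoxc6, Hoxd8 and Hoxb9. Those that rose were Hoxc5, Hoxa9, Hoxd9 and Hoxc10. Hoxc10, a lumbar gene, read 3965, 4643 and 4203 on the cord arrays and 10041, 11068 and 10020 on the motor neuron arrays (2.43-fold higher, limma adjusted p = 8.47e-06). Hoxd8 read 11971, 13055 and 11525 on the cord arrays and 2632, 1959 and 2335 on the motor neuron arrays (5.27-fold lower, limma adjusted p = 1.02e-06), and Hoxb9 read 3324, 4085 and 4403 on the cord arrays and 19.6, 132 and 276 on the motor neuron arrays, with a single motor neuron array above background. Hoxa9 rose on its brightest probe set, at 14155, 14852 and 14786 in cord and 35379, 36767 and 36026 in motor neurons, and was called lower on the other. Hoxa5 was called higher on its other probe set, by 0.54 on the log2 scale, and Hoxa3 was called on 1 of 3 probe sets, Hoxc6 on 2 of 3 and Hoxc5 on 1 of 2. The other 11 tested Hox genes neither rose nor fell under all 3 scalings. The labels do not give the cord level from which the neurons or the whole tissue were taken.

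Genes that make, load and break down acetylcholine moved to different degrees. Of the cholinergic list 5 of 10 tested members rose and 2 fell, with a median of 0.61. Ache, which splits acetylcholine at the synapse, read 8346, 9995 and 9491 on the cord arrays and 21580, 24100 and 21220 on the motor neuron arrays (2.4-fold higher, limma adjusted p = 7.07e-06). Slc5a7, which brings choline back into the terminal, read 862, 859 and 567 on the cord arrays and 1097, 1385 and 1614 on the motor neuron arrays (1.78-fold higher, limma adjusted p = 0.015; 0.0572 without cord replicate 3 and 0.0616 without motor neuron replicate 3). Chat, the enzyme that makes acetylcholine, read 397, 433 and 441 on the cord arrays and 830, 496 and 694 on the motor neuron arrays; it was higher on average by 0.61 on the log2 scale, but passed the threshold (limma adjusted p = 0.0816 as deposited) only after quantile normalization, with a limma adjusted p of 0.00164, or centring. Both genes that fell act in other settings, Bche, a plasma and glial cholinesterase, at 2192, 2020 and 2030 in cord and 424, 298 and 391 in motor neurons, and Slc44a1, a choline transporter rich in glia, at 22087, 24407 and 21904 in cord and 9338, 10056 and 9149 in motor neurons.

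Markers that divide motor neurons into classes rose more often than they fell, those of fast cells among them. Of the subtype list 8 of 15 tested members rose and 2 fell, with a median of 1.72. Mmp9, a protease of fast motor neurons, read 962, 1236 and 1060 on the cord arrays and 17468, 17430 and 15016 on the motor neuron arrays (15.1-fold higher, limma adjusted p = 1.84e-07), with both probe sets called. Calcb, the beta form of calcitonin gene-related peptide, read 8150, 4798 and 6085 on the cord arrays and 101497, 103441 and 101659 on the motor neuron arrays (16.4-fold higher, limma adjusted p = 3.32e-07). Kcng4, a modifier of potassium channels found in fast motor neurons, read 3576, 4034 and 4178 on the cord arrays and 29210, 22050 and 26141 on the motor neuron arrays (6.51-fold higher, limma adjusted p = 4.68e-07). Sv2a, a vesicle protein associated with slow motor neurons but present at most synapses, read 18746, 19708 and 19353 on the cord arrays and 4459, 4068 and 4433 on the motor neuron arrays (4.45-fold lower, limma adjusted p = 3.02e-07). The proportions of the classes among the captured cells were not measured.

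**Figure D3:**
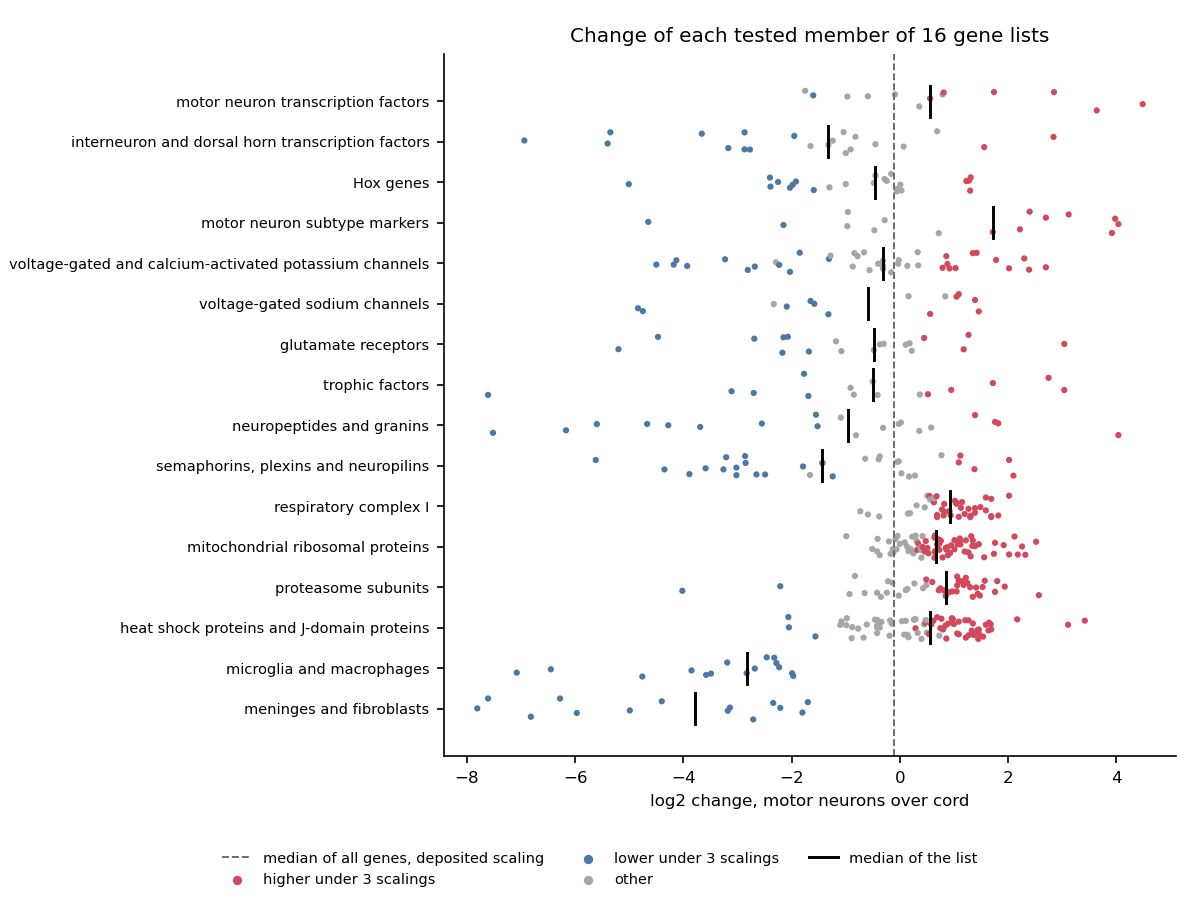
Log2 change, motor neurons over cord, of each tested member of 16 gene lists, 1 point per gene; red points rose and blue points fell under all 3 scalings, the black bar is the median of a list and the dashed line the median of all genes, -0.10. Channel, receptor and peptide lists spread to both sides, whereas complex I and mitochondrial ribosomal proteins hold no blue point.

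Potassium channels split in both directions. Of the voltage-gated and calcium-activated set 12 of 40 tested members rose and 11 fell, and of the inward rectifier and two-pore set 7 of 18 tested members rose and 5 fell. In the first set the share that rose lay near the 28.7% of all genes, and the share that fell lay above their 15.3%. Kcnj14, an inward rectifier known from motor nuclei, read 1519, 1986 and 2010 on the cord arrays and 50384, 46339 and 49922 on the motor neuron arrays (26.5-fold higher, limma adjusted p = 8.12e-08). Kcnk3, a two-pore channel that holds the resting potential, read 1682, 2390 and 2169 on the cord arrays and 7757, 7504 and 6970 on the motor neuron arrays (3.57-fold higher, limma adjusted p = 8.52e-06). Kcnmb4, an accessory subunit of the large calcium-activated channel, read 3333, 2505 and 3167 on the cord arrays and 15561, 15985 and 15448 on the motor neuron arrays (5.23-fold higher, limma adjusted p = 7.83e-07). In the other direction Kcnj10, the main rectifier of astrocytes, read 34908, 33214 and 42992 on the cord arrays and 6598, 6056 and 5987 on the motor neuron arrays (5.91-fold lower, limma adjusted p = 3.92e-07). Kcnc2, a fast delayed rectifier of interneurons, read 5804, 6566 and 5811 in cord and 254, 582 and 230 in motor neurons. Kcnip2, an accessory subunit of A-type channels, read 1848, 1760 and 2185 in cord and 44, 69.7 and 89.9 in motor neurons and was at least 12.2-fold lower (limma adjusted p = 4.93e-06).

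Sodium and calcium channel families changed by subunit. Of the sodium channel list 5 of 14 tested members rose and 6 fell. Scn4b, a beta subunit that supports fast repeated firing, read 24277, 24285 and 23436 on the cord arrays and 60170, 63985 and 64749 on the motor neuron arrays (2.62-fold higher, limma adjusted p = 6.17e-07). Scn2b and Scn3b, other beta subunits, read 13914, 15684 and 14275 in cord and 3551, 3255 and 3480 in motor neurons for Scn2b and 5315, 4876 and 4880 in cord and 39.6, 364 and 218 in motor neurons for Scn3b. The beta subunits thus differed in direction within the same arrays. Of the calcium channel list 6 of 19 tested members rose and 5 fell. The share that rose lay near the 28.7% of all genes, and the share that fell lay above their 15.3%. Cacna2d3, an auxiliary subunit, read 7890, 9272 and 8845 on the cord arrays and 37497, 32716 and 37827 on the motor neuron arrays (4.15-fold higher, limma adjusted p = 5.45e-07), while its relative Cacna2d1 read 8162, 7588 and 7472 on the cord arrays and 755, 1337 and 997 on the motor neuron arrays (7.58-fold lower, limma adjusted p = 3.31e-06). Among other channels, Trpv2, a cation channel, read 1593, 1041 and 1663 in cord and 13101, 11594 and 13502 in motor neurons (8.94-fold higher, limma adjusted p = 1.37e-06), and Hcn2, a pacemaker channel, read 8176, 9617 and 8196 in cord and 588, 1459 and 1097 in motor neurons (8.64-fold lower, limma adjusted p = 2.03e-05). Fxyd7, a brain modulator of the sodium pump, read 10284, 8883 and 9301 in cord and 52470, 61639 and 57792 in motor neurons and rose, while its relatives Fxyd1, Fxyd2 and Fxyd6 fell.

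Transmitter receptors also changed subunit by subunit. Of the glutamate receptors 4 of 19 tested members rose and 7 fell, with a median of -0.48. Grin3b, an NMDA receptor subunit known from motor neurons, read 806, 754 and 738 on the cord arrays and 4705, 8603 and 6651 on the motor neuron arrays (8.24-fold higher, limma adjusted p = 4.04e-06). Gria3, an AMPA receptor subunit, read 8882, 10217 and 9111 on the cord arrays and 22388, 20409 and 21109 on the motor neuron arrays (2.27-fold higher, limma adjusted p = 5.76e-06). Grm5, a metabotropic receptor, read 9074, 9328 and 9084 on the cord arrays and 196, 297 and 208 on the motor neuron arrays (36.7-fold lower, limma adjusted p = 2.34e-07), with both probe sets called. Of GABA and glycine receptors 4 of 16 tested members rose and 4 fell. Gabra3 read 8013, 8323 and 7471 in cord and 1227, 857 and 941 in motor neurons and Glra2, the fetal glycine receptor subunit, read 1285, 1236 and 1195 in cord and 397, 194 and 164 in motor neurons; both fell. Glra1, the adult glycine receptor subunit, changed by 0.46 on the log2 scale (limma adjusted p = 0.226), and its other probe set was called lower. Of the serotonin, adrenergic and dopamine receptors 4 of 13 tested members rose and 4 fell. Htr7 read 1814, 2208 and 2096 in cord and 6194, 4626 and 5421 in motor neurons and Htr3a 1170, 521 and 839 in cord and 4381, 3532 and 3382 in motor neurons, and both rose; Htr1a read 1167, 1291 and 829 in cord and 173, 31.6 and 45.6 in motor neurons and fell. Only 4 of 18 acetylcholine receptor genes passed the filter, and of these Chrna7 and Chrnb2 rose 0.75 and 0.65 on the log2 scale.

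Growth factors and their receptors moved in both directions. Of the trophic factors 5 of 15 tested members rose and 5 fell. Fgf9, a secreted growth factor, read 2898, 3547 and 3230 on the cord arrays and 25489, 29985 and 24363 on the motor neuron arrays (8.2-fold higher, limma adjusted p = 2.59e-07); 1 of its 2 probe sets was called higher and the other lower. Nrg1, a signal to Schwann cells and muscle, read 821, 1010 and 930 on the cord arrays and 6283, 6599 and 6017 on the motor neuron arrays (6.73-fold higher, limma adjusted p = 6.46e-07). Igf2, a growth factor of the meninges, read 25058, 10333 and 17830 on the cord arrays and 68.8, 73.7 and 54.2 on the motor neuron arrays and was at least 105-fold lower (limma adjusted p = 3.32e-07). Of the receptors 5 of 25 tested members rose and 6 fell. Nrp2, a co-receptor for VEGF and class 3 semaphorins, read 2275, 2487 and 2573 in cord and 11104, 8963 and 11761 in motor neurons (4.29-fold higher, limma adjusted p = 1.89e-06). Lifr, the receptor for leukemia inhibitory factor, read 18065, 14545 and 16711 in cord and 50901, 47949 and 42052 in motor neurons (2.86-fold higher, limma adjusted p = 4.06e-06), with both probe sets called. Ngfr, the low-affinity neurotrophin receptor, read 2221, 518 and 1462 in cord and 57, 84.8 and 21 in motor neurons and was at least 7.62-fold lower (limma adjusted p = 3.30e-04). Ret and Gfra1, which form the GDNF receptor, gave answers that depend on the probe set. The brightest probe set of Ret read 8023, 6179 and 7460 in cord and 24593, 29244 and 22213 in motor neurons and its other was called lower, with a log2 change of -0.85. For Gfra1 the brightest read 3871, 3298 and 4020 in cord and 21768, 16844 and 20812 in motor neurons, while another read 2340, 1858 and 2171 in cord and 132, 10.2 and 56.7 in motor neurons, and the third was called lower too.

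Neuropeptides and granins fell more often than they rose. Of the peptide and granin list 4 of 20 tested members rose and 9 fell, with a median of -0.95. Sst, somatostatin, read 16581, 17696 and 15740 on the cord arrays and 228, 546 and 268 on the motor neuron arrays (48.5-fold lower, limma adjusted p = 7.28e-07). Tac1, the substance P precursor, read 12677, 9788 and 11211 in cord and 27.7, 324 and 204 in motor neurons (72.2-fold lower, limma adjusted p = 3.29e-05), with 2 motor neuron arrays above background. Tac2, the neurokinin B precursor, read 7960, 9351 and 7958 in cord and 56.8, 10.4 and 20.7 in motor neurons and was at least 52.8-fold lower (limma adjusted p = 5.60e-07). Chga and Vgf, proteins of dense-core vesicles, read 12411, 13969 and 13298 in cord and 41393, 47787 and 45244 in motor neurons for Chga and 4251, 4745 and 4501 in cord and 12470, 20308 and 15866 in motor neurons for Vgf, and both rose. Cck, cholecystokinin, read 6299, 5935 and 5968 in cord and 13217, 17394 and 17510 in motor neurons and rose 1.39 on the log2 scale (limma adjusted p = 1.47e-05). Enzymes that mature peptides were lower as well, and of that list 0 of 6 tested members rose and 4 fell. Pam, which amidates peptide ends, read 7807, 7525 and 7379 in cord and 1600, 1222 and 1485 in motor neurons (5.24-fold lower, limma adjusted p = 1.16e-06), and Pcsk1, a prohormone convertase, read 1314, 1017 and 864 in cord and 218, 100 and 116 in motor neurons.

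Guidance and adhesion genes moved in both directions, and semaphorins and their receptors fell more often than they rose. Of semaphorins, plexins and neuropilins 5 of 31 tested members rose and 15 fell, with a median of -1.43. Sema4d, a semaphorin of oligodendrocytes, read 14401, 13062 and 15262 on the cord arrays and 811, 1073 and 953 on the motor neuron arrays (14.8-fold lower, limma adjusted p = 2.13e-07), with both probe sets called. Sema3b, a secreted form, read 4769, 2721 and 3630 in cord and 44.6, 12 and 172 in motor neurons and fell. Sema3a, a secreted repellent known from adult motor neurons, read 2770, 3153 and 2827 on the cord arrays and 11567, 12281 and 11680 on the motor neuron arrays (4.04-fold higher, limma adjusted p = 6.42e-07). Its other probe set changed by -0.69 on the log2 scale and was not called. Slit2, another secreted repellent, read 6496, 4039 and 6290 in cord and 22931, 21205 and 21752 in motor neurons (3.99-fold higher, limma adjusted p = 1.28e-05), with 2 of 3 probe sets called and none lower. Ntn1, netrin-1, read 2615, 2272 and 1816 in cord and 551, 276 and 92.8 in motor neurons and fell. Of the cadherins 15 of 44 tested members rose and 9 fell; Cdh22 read 3992, 4141 and 4320 in cord and 23422, 33837 and 26724 in motor neurons and rose, and Cdh11 read 9766, 9059 and 10179 in cord and 446, 1316 and 395 in motor neurons and fell. Nlgn2, a neuroligin of inhibitory synapses, read 7206, 7867 and 7713 in cord and 31213, 31377 and 31336 in motor neurons (4.12-fold higher, limma adjusted p = 2.40e-07). The other probe set of Nlgn2 changed by -0.58 and was not called.

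Matrix of the perineuronal net, a coat around large neurons, moved in both directions. Of that list 4 of 13 tested members rose and 6 fell. Acan, aggrecan, the core proteoglycan of the net, read 723, 855 and 1132 on the cord arrays and 5204, 4845 and 4532 on the motor neuron arrays (5.36-fold higher, limma adjusted p = 6.13e-06). Has3, a hyaluronan synthase, read 186, 382 and 233 in cord and 857, 922 and 926 in motor neurons (3.34-fold higher, limma adjusted p = 0.00123). Vcan, versican, and Tnc, tenascin C, read 4976, 4742 and 5331 in cord and 777, 356 and 582 in motor neurons for Vcan and 1787, 1003 and 1166 in cord and 360, 32.8 and 226 in motor neurons for Tnc, and both fell.

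Cytoskeletal genes moved family by family. Of neuronal intermediate filaments 4 of 8 tested members rose and 2 fell, of dyneins and dynactins 6 of 19 tested members rose and 1 fell, and of spectrins and ankyrins 2 of 16 tested members rose and 2 fell. Prph, peripherin, an intermediate filament of neurons with peripheral axons, read 10150, 4862 and 8142 on the cord arrays and 84880, 82716 and 81522 on the motor neuron arrays (11.2-fold higher, limma adjusted p = 2.64e-06), with both probe sets called. Nefh and Nefm, heavy and medium neurofilament, read 64778, 65491 and 58053 in cord and 135212, 138850 and 143961 in motor neurons for Nefh and 82715, 83122 and 75851 in cord and 143038, 145510 and 149594 in motor neurons for Nefm; they rose 1.15 and 0.86 on the log2 scale. Vim and Gfap, filaments of glia and membranes, were 39-fold lower and 15.1-fold lower, and all 3 probe sets of each fell. The changes of Gfap ran from -3.91 on the brightest over all groups, which these folds use, to -7.48 on the log2 scale. Of the tubulins 8 of 14 tested members rose and 2 fell. Tuba8 read 741, 917 and 850 in cord and 5570, 4384 and 4468 in motor neurons (5.62-fold higher, limma adjusted p = 2.51e-06), and Tubb4a, an isotype of oligodendrocytes, read 56156, 57107 and 55463 in cord and 5396, 6511 and 5976 in motor neurons (9.43-fold lower, limma adjusted p = 9.83e-08). Of kinesins 8 of 34 tested members rose and 6 fell, near the shares of all genes, 28.7% and 15.3%. The share of dyneins and dynactins that rose also lay near 28.7%. Myosins (3 of 29 rose, 9 fell) fell more often than they rose. Dync1i1, an intermediate chain of the retrograde motor, read 14941, 16192 and 15728 in cord and 44484, 50872 and 36060 in motor neurons (2.78-fold higher, limma adjusted p = 1.01e-05), and Kif21a read 10780, 14395 and 10867 in cord and 40439, 40370 and 33493 in motor neurons (3.18-fold higher, limma adjusted p = 7.86e-06).

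Vesicle release genes were divided. Of synaptotagmins, SNAREs and complexins 11 of 46 tested members rose and 14 fell. Cplx2, a complexin of excitatory terminals, read 7874, 9019 and 8065 on the cord arrays and 312, 675 and 839 on the motor neuron arrays (14.3-fold lower, limma adjusted p = 9.96e-06), on all 3 probe sets. Syt5 and Syt9, calcium sensors, each stood above background on a single motor neuron array and fell. Snap47 read 61079, 74956 and 63633 in cord and 138791, 150079 and 165833 in motor neurons and rose 1.19 on the log2 scale. Among Rab proteins, Rab3b and Rab39 rose most: Rab3b, a vesicle GTPase, read 1990, 1949 and 2350 in cord and 10201, 11912 and 11169 in motor neurons, and Rab39 read 524, 430 and 490 in cord and 3668, 3198 and 3571 in motor neurons (6.99-fold higher, limma adjusted p = 1.72e-06).

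Several families of mitochondrial genes rose in large numbers. Of complex I genes, which take electrons from NADH, 32 of 42 tested members rose and 0 fell, with a median of 0.93. Ndufa5, a complex I subunit, read 21778, 20946 and 20556 on the cord arrays and 74271, 98917 and 86163 on the motor neuron arrays (4.07-fold higher, limma adjusted p = 8.18e-07). Of mitochondrial ribosomal proteins 51 of 76 tested members rose and 0 fell, with a median of 0.67. Mrpl11 read 4846, 5497 and 4708 on the cord arrays and 24084, 32311 and 30794 on the motor neuron arrays (5.74-fold higher, limma adjusted p = 7.20e-07), with all 3 probe sets called. Of the import machinery 17 of 31 tested members rose and 1 fell, and Tomm7, of the outer membrane pore, read 11963, 12331 and 12294 in cord and 46414, 56537 and 53002 in motor neurons on the brightest of 4 probe sets that all rose. Of citric acid cycle genes 14 of 22 tested members rose and 1 fell; Suclg2, the GTP-forming subunit of succinyl-CoA ligase, read 5025, 5554 and 5237 in cord and 1843, 1035 and 1452 in motor neurons and fell, while its ATP-forming counterpart Sucla2 read 34831, 35422 and 32112 in cord and 90806, 89197 and 94888 in motor neurons and rose. The other probe set of Sucla2 changed by -0.82 on the log2 scale and was not called. Of respiratory complexes II to IV 20 of 37 tested members rose and 3 fell. Of ATP synthase genes 8 of 18 tested members rose and 0 fell, though 6 were called lower after quantile normalization. Of mitochondrial carriers 12 of 43 tested members rose and 6 fell, near the shares of all genes, 28.7% and 15.3%. Of cytosolic ribosomal proteins 5 of 47 tested members rose and 2 fell, with a median of 0.03.

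Among genes of protein turnover, the proteasome, the proton pump and ubiquitin-conjugating enzymes held many that rose, and other families did not. Of proteasome subunits 29 of 45 tested members rose and 2 fell, with a median of 0.86. Psmb3, of the catalytic core, read 21112, 21447 and 18118 on the cord arrays and 120807, 115342 and 123374 on the motor neuron arrays (5.93-fold higher, limma adjusted p = 1.67e-07). Psme1, an activator induced by interferon, read 6210, 5368 and 5773 on the cord arrays and 342, 398 and 282 on the motor neuron arrays (16.2-fold lower, limma adjusted p = 4.56e-07). Psmd7, of the lid of the regulatory particle, read 10511, 10910 and 10550 in cord and 2964, 1757 and 2295 in motor neurons and also fell. Of the vacuolar proton pump, which acidifies lysosomes and vesicles, 14 of 18 tested members rose and 1 fell. Of ubiquitin-conjugating enzymes 17 of 29 tested members rose and 2 fell, of ubiquitin-specific proteases 12 of 45 tested members rose and 5 fell, of F-box and tripartite motif proteins 26 of 89 tested members rose and 10 fell, and of cathepsins and lysosomal hydrolases 4 of 27 tested members rose and 8 fell. Ctsd, an aspartic protease of lysosomes, read 24577, 22332 and 23726 in cord and 52995, 48379 and 48773 in motor neurons and rose, whereas Ctsc and Ctsh, cathepsins of myeloid cells, fell. Ctsh was 15.1-fold lower. Ctsc read 4437, 3116 and 3833 in cord and 176, 31.8 and 57.9 in motor neurons, with 1 motor neuron array above background, and changed by -5.35 on the log2 scale as measured and by -4.49 with values raised to background.

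Of heat shock and J-domain proteins 40 of 76 tested members rose and 3 fell, with a median of 0.56. Bag3, which steers misfolded protein to autophagy together with Hspb8, read 3935, 3271 and 3914 on the cord arrays and 36742, 41895 and 40554 on the motor neuron arrays (10.7-fold higher, limma adjusted p = 1.39e-07). Hspb1, a small heat shock protein of motor neurons, read 15791, 12631 and 14539 on the cord arrays and 51025, 75182 and 68658 on the motor neuron arrays (4.49-fold higher, limma adjusted p = 3.46e-06), with both probe sets called. Hspb8 read 7450, 6466 and 6760 on the cord arrays and 57013, 60703 and 61362 on the motor neuron arrays on its brightest probe set (8.65-fold higher, limma adjusted p = 8.81e-08); of its 3 probe sets 1 was called higher and 1 lower. Hspb2, of the same small heat shock family, went the other way, at 1256, 906 and 914 in cord and 184, 388 and 163 in motor neurons (4.17-fold lower, limma adjusted p = 0.00107).

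Promoters of these families are shown because many of their members rose. RefSeq promoters of the build GRCm38.p6, from 250 bases before to 50 bases after the start, were matched by gene for 10479 of the 12983 genes. A total of 16 motifs were searched on both strands. They were the heat shock element, the homeobox letters TAATTA, the LIM-homeobox letters CATTAG, the nuclear receptor letters TCAAGGTCA with their shorter form AAGGTCA, the REST letters TTCAGCACC, the TATA box as TATAAA, the cyclic AMP element TGACGTCA, the ETS letters GGAAGTG and the longer CCGGAAGT that can overlap them, the NRF1 letters GCGCATGC, the E-box CAGGTG, the ZNF143 letters ACTACAA, the E2F letters GGCGGGA, the CCAAT box as CCAAT, and also TGACGCAA. The letters CCGGAAGT, which ETS factors can bind, were in 3.89% of all 32851 promoters, 8.38% of those of tested genes, 10.6% of those that rose and 3.79% of those that fell. They were in 9 of 38 proteasome promoters (23.7%) and 12 of 67 mitochondrial ribosomal promoters (17.9%), and these sets were picked after the search. The next sequences are 100-base stretches, 5′ to 3′ on the strand of the gene, with the motif or its reverse complement in capitals. They come from Psmc2 (chr5:21785144-21785243, plus strand), Psmd6 (chr14:14120946-14121045, minus strand), Mrps26 (chr2:130563657-130563756, plus strand) and Mrps27 (chr13:99344686-99344785, plus strand).
Psmc2: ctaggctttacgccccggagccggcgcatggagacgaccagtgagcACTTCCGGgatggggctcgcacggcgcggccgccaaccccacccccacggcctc
Psmd6: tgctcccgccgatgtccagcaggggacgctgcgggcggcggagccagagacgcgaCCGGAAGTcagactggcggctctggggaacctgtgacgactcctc
Mrps26: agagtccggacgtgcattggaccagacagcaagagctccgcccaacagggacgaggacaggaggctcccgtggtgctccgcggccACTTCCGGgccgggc
Mrps27: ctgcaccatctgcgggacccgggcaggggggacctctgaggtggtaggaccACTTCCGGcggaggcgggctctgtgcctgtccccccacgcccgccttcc
The letters lie 78 to 85 bases before the start in Psmc2, 38 to 45 in Psmd6, 8 to 15 in Mrps26 and 42 to 49 in Mrps27. Psmc2, a base subunit, read 28190, 24937 and 26852 in cord and 87248, 91427 and 91965 in motor neurons, and Psmd6, a lid subunit, read 16795, 16463 and 17406 in cord and 50291, 48550 and 51423 in motor neurons. Mrps26 and Mrps27, of the small mitochondrial ribosome subunit, read 9240, 8638 and 8510 in cord and 15196, 23223 and 23331 in motor neurons for Mrps26 and 2514, 3047 and 2636 in cord and 3956, 4115 and 4725 in motor neurons for Mrps27. A match is a description of the letters and not a site of binding.

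The heat shock element, searched as GAA, TTC and GAA with any 2 bases between neighbours, was in 0.603% of all promoters, 0.526% of those of genes that rose and 0.643% of those that fell. In the chaperone list 4 of 63 promoters held it (6.35%), those of Dnajb6, Hspd1, Hspe1 and Hsph1; the probe sets of all but Hspd1, which has 1, differed in direction. Hspd1 (chr1:55088021-55088120, minus strand), the mitochondrial chaperonin, is shown with the letters in capitals, 132 to 144 bases before its start.
Hspd1: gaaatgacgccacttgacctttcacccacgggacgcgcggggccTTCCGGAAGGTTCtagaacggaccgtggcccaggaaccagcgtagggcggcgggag
Hspd1 read 34220, 35658 and 32761 in cord and 103357, 104676 and 90414 in motor neurons (1.54 on the log2 scale, limma adjusted p = 8.31e-07). The promoters of Bag3, Hspb8 and Hspb1 did not hold these letters within the same window.

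Among genes for expression itself, many enzymes that charge tRNA rose, and most zinc finger genes neither rose nor fell under all 3 scalings. Of aminoacyl-tRNA synthetases 18 of 33 tested members rose and 0 fell, with a median of 0.73. Hars, which charges the histidine tRNA, read 21682, 20547 and 21101 on the cord arrays and 82954, 94983 and 99618 on the motor neuron arrays (4.37-fold higher, limma adjusted p = 2.82e-07). Polr3g, a subunit of RNA polymerase III, read 1356, 1054 and 1273 in cord and 11799, 9161 and 9018 in motor neurons (8.01-fold higher, limma adjusted p = 8.07e-07). Of zinc finger genes named Zfp 44 of 294 tested members rose and 29 fell, with a median of -0.43. Of SWI/SNF and CHD remodellers 5 of 35 tested members rose and 7 fell. Srsf5, a splicing factor, read 41199, 40819 and 39866 in cord and 10465, 8010 and 8992 in motor neurons (4.46-fold lower, limma adjusted p = 5.97e-07). Nr1d1, a clock repressor, read 1279, 1404 and 1175 in cord and 25.5, 51.6 and 76.8 in motor neurons and was at least 8.18-fold lower (limma adjusted p = 2.25e-05), while the receptors for vitamin D and aldosterone, Vdr and Nr3c2, read 389, 437 and 671 in cord and 3000, 2430 and 2862 in motor neurons for Vdr and 1829, 1751 and 1517 in cord and 7299, 6886 and 7028 in motor neurons for Nr3c2 and rose.

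Genes mutated in inherited motor neuron disease were mostly higher. Of that list 12 of 22 tested members rose and 3 fell, with a median of 0.51. Tbk1, a kinase of selective autophagy, read 9826, 9619 and 9202 on the cord arrays and 32313, 32199 and 31450 on the motor neuron arrays (3.35-fold higher, limma adjusted p = 3.50e-07), with both probe sets called. Fig4, a lipid phosphatase, read 4973, 4867 and 5270 in cord and 15084, 9316 and 11465 in motor neurons (2.32-fold higher, limma adjusted p = 1.91e-04). Smn1, which assembles splicing particles, read 1597, 1674 and 1722 on the cord arrays and 74.8, 40.6 and 14.9 on the motor neuron arrays on its only tested probe set and was at least 10.6-fold lower (limma adjusted p = 1.62e-05). Ang, angiogenin, read 2150, 1515 and 1932 in cord and 35.8, 46.8 and 43.2 in motor neurons and was at least 11.7-fold lower (limma adjusted p = 3.16e-06), and Pfn1, an actin-binding protein, read 24872, 22588 and 22913 in cord and 6158, 4700 and 5400 in motor neurons (4.34-fold lower, limma adjusted p = 9.27e-07). Early response genes differed in direction: Jun read 3479, 3146 and 3897 in cord and 8385, 7368 and 7984 in motor neurons and Fos 5760, 6134 and 6531 in cord and 9439, 11412 and 10553 in motor neurons, and both rose, though the Jun probe set brightest in cord changed by 0.31 (limma adjusted p = 0.226), whereas Egr1 read 7491, 7089 and 6601 in cord and 2300, 2026 and 2060 in motor neurons and Nr4a1 2054, 1674 and 2038 in cord and 506, 422 and 581 in motor neurons, and both fell.

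Enzymes of membrane lipid differed in direction. Of the cholesterol synthesis list 3 of 19 tested members rose and 3 fell, with a median of -0.21. Of the sphingolipid and ganglioside list 7 of 20 tested members rose and 5 fell. Fdps, of the cholesterol pathway, read 41813, 39554 and 40277 on the cord arrays and 4151, 3814 and 4552 on the motor neuron arrays (9.7-fold lower, limma adjusted p = 1.06e-07). Fa2h and Ugt8a, which make the galactolipids of myelin, read 37726, 38628 and 36599 in cord and 2268, 2363 and 2178 in motor neurons for Fa2h and 78866, 88623 and 78210 in cord and 17093, 10181 and 13779 in motor neurons for Ugt8a, and both fell. St8sia3, a neuronal sialyltransferase of gangliosides, read 3844, 4708 and 4142 in cord and 14133, 10472 and 12694 in motor neurons (2.92-fold higher, limma adjusted p = 1.38e-05), with both probe sets called.

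Markers of other cell types were mostly lower in the captured material. Of microglial genes 0 of 15 tested members rose and 15 fell, and their summed signal was 94302, 82649 and 87597 in cord and 10062, 10925 and 10522 in motor neurons. C1qc, a complement gene of microglia, read 5247, 4548 and 4957 in cord and 21.3, 16.3 and 11.3 in motor neurons and was at least 30.9-fold lower (limma adjusted p = 3.25e-07). Of oligodendrocyte precursor genes 0 of 9 tested members rose and 8 fell. Of myelin genes 0 of 16 tested members rose and 13 fell, and their sum was 975376, 1052153 and 915237 in cord and 340868, 312797 and 330554 in motor neurons. Gjb1, a connexin of myelinating cells, read 9616, 9599 and 9961 in cord and 44.1, 119 and 78.9 in motor neurons and was at least 61.2-fold lower (limma adjusted p = 3.83e-07), but Mbp, myelin basic protein, read 144310, 157688 and 130561 in cord and 109632, 120123 and 115757 in motor neurons, a log2 change of -0.32 that turned to 0.59 after centring. That is the brightest of 8 tested probe sets of Mbp, of which 4 were called lower and 0 higher, with changes of -6.90 to 0.20. Of astrocyte genes 1 of 19 tested members rose and 15 fell, with a sum of 715184, 750764 and 683082 in cord and 371086, 368061 and 350790 in motor neurons. Agt, angiotensinogen, read 20797, 25398 and 22418 in cord and 557, 752 and 418 in motor neurons (39.3-fold lower, limma adjusted p = 2.53e-07), while Clu, clusterin, which neurons also make, read 71776, 76431 and 69719 in cord and 126474, 132549 and 129983 in motor neurons and rose on the brightest of 4 probe sets; another changed by -0.07 (limma adjusted p = 0.446), and the remaining ones did not rise under all 3 scalings. A sum is carried by its brightest probe sets.

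Inhibitory neurons left a mixed record. Of their markers 0 of 9 tested members rose and 6 fell. Gad1 and Gad2, which make GABA, read 19040, 23280 and 20871 in cord and 1179, 725 and 653 in motor neurons for Gad1 and 5699, 6444 and 6212 in cord and 61.6, 307 and 386 in motor neurons for Gad2, and both fell. Slc6a5, the glycine transporter of inhibitory terminals, read 19277, 20283 and 19725 in cord and 11050, 9293 and 9360 in motor neurons, and Slc32a1, which loads GABA and glycine into vesicles, read 12752, 15196 and 12684 in cord and 8035, 8864 and 7276 in motor neurons; neither fell under all 3 scalings, and Slc32a1 changed by -0.75 as deposited and by 0.16 after centring. Mbp, Slc6a5 and Slc32a1 were chosen after their values were seen. Slc17a6, the glutamate transporter of excitatory interneurons, read 28735, 31668 and 28509 on the cord arrays and 2563, 2767 and 2245 on the motor neuron arrays (11.7-fold lower, limma adjusted p = 1.32e-07). The part of residual RNA of other cells in the changes of genes that those cells share with motor neurons was not tested.

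**Figure D4:**
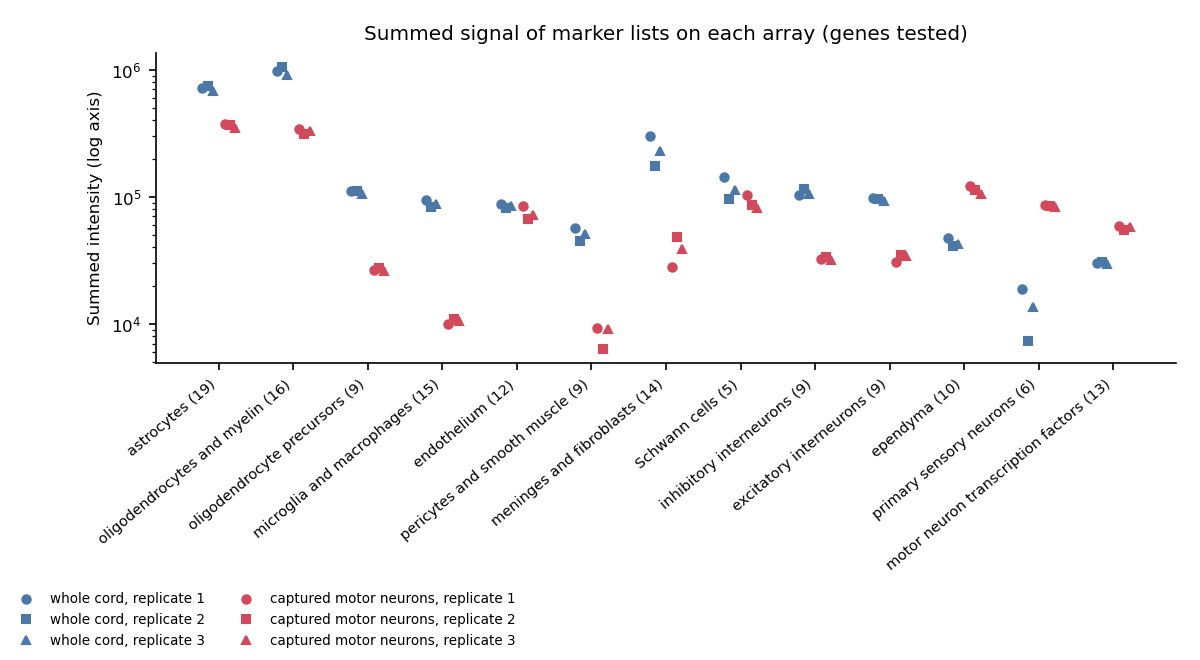
Summed intensity, on a log axis, of the tested genes of 13 marker lists on each array, 1 symbol per replicate. Microglial, meningeal and pericyte sums lie lower on all 3 motor neuron arrays, whereas the ependymal sum is higher through Tppp3 and the sensory sum through Prph.

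The cord arrays differed among themselves in genes of membranes and roots. The meningeal sum was 302303, 175176 and 228435 on cord replicates 1, 2 and 3 and 27794, 47960 and 38963 in motor neurons, and of its genes 0 of 14 tested members rose and 14 fell. Col3a1, a fibrillar collagen, read 36705, 10215 and 23825 on the cord arrays and 20.7, 190 and 71.1 on the motor neuron arrays. Pmp2, a protein of peripheral myelin, read 12726, 3385 and 7867 in cord and 23.7, 55 and 26.6 in motor neurons, and Fxyd2, a sodium pump modulator of sensory ganglia, read 7162, 922 and 4407 in cord and 307, 260 and 196 in motor neurons. Replicate 2 was the lowest and replicate 1 the highest cord array for each of these, as for Isl1, Prph and Ngfr. On the log2 scale their differences from motor neurons remained larger than the range of the cord arrays. On the intensity scale this did not hold for all of them, Fxyd2 being an example. Of ependymal genes 2 of 10 tested members rose and 2 fell, and Foxj1, the factor of ciliated cells, changed by -1.29 on the log2 scale.

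A few bright genes belong to no neuron list. Tesc, tescalcin, read 7256, 7143 and 6589 on the cord arrays and 86103, 100353 and 94225 on the motor neuron arrays (13.3-fold higher, limma adjusted p = 4.38e-08). Pappa, a protease of insulin-like growth factor binding proteins, read 662, 615 and 425 on the cord arrays and 8434, 10880 and 8391 on the motor neuron arrays (15.9-fold higher, limma adjusted p = 6.84e-07). Amhr2, the receptor for anti-Müllerian hormone, read 779, 930 and 852 on the cord arrays and 8087, 15419 and 12682 on the motor neuron arrays (13.4-fold higher, limma adjusted p = 1.66e-06), and Dmp1, a protein of bone matrix, read 573, 1130 and 881 on the cord arrays and 9526, 12640 and 10813 on the motor neuron arrays (12.9-fold higher, limma adjusted p = 2.43e-06). S100a10, a partner of annexin 2, read 10196, 5529 and 8981 in cord and 72516, 80752 and 63644 in motor neurons, and Saa1, a serum amyloid protein, read 201, 172 and 300 in cord and 1632, 2648 and 2497 in motor neurons. All tested probe sets of these 6 genes were called higher under the 3 scalings, which is how they were chosen. The size differed between probe sets, from 1.15 to 3.69 on the log2 scale for Dmp1, from 1.64 to 3.17 for S100a10 and from 2.54 to 3.74 for Amhr2. The Amhr2 probe set of smallest change was dim, at 56.1, 65.7 and 65.3 in cord and 167, 787 and 708 in motor neurons. It is the only Amhr2 probe set whose identifier carries no letter code for shared or mixed targets.

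Single genes best known from other tissues also rose. Ttr, transthyretin of liver and choroid plexus, read 5.49, 151 and 15.3 in cord and 1040, 4518 and 3360 in motor neurons on the brightest of 3 probe sets that all rose, and was at least 14.7-fold higher (limma adjusted p = 2.69e-04). Of choroid plexus genes 1 of 5 tested members rose and 2 fell. Pde6b, a phosphodiesterase of rods, read 20.8, 113 and 37.7 in cord and 1874, 1724 and 1533 in motor neurons and was at least 10-fold higher (limma adjusted p = 3.28e-05) and of photoreceptor genes 1 of 5 tested members rose and 0 fell. Spp2 and Gnmt, abundant in liver, read 68.8, 14.4 and 96.4 in cord and 1623, 1401 and 1802 in motor neurons for Spp2 and 354, 68.3 and 65.9 in cord and 3346, 1989 and 2534 in motor neurons for Gnmt. Of liver and plasma genes 4 of 4 tested members rose and 0 fell, the others being Ttr and Apoa2, at 41.8, 375 and 284 in cord and 880, 1038 and 885 in motor neurons. Cd7, a T cell gene, read 39.3, 286 and 35.7 in cord and 2880, 2158 and 2010 in motor neurons, and Tph2, the enzyme of serotonin neurons, read 79.7, 61 and 17.5 in cord and 1100, 1194 and 1178 in motor neurons. Of T cell genes 2 of 3 tested members rose and 0 fell, Cd7 and Zap70, a kinase, at 1033, 1770 and 1004 in cord and 1705, 2359 and 2839 in motor neurons (limma adjusted p = 0.0193; 0.067 without cord replicate 1, 0.0718 without cord replicate 3 and 0.0833 without motor neuron replicate 3). Under the filter were 8 choroid plexus, 13 photoreceptor, 15 liver and 5 T cell genes and all 5 red cell genes on the array. A gene that is dim in cord passed the filter only through the motor neuron arrays, so these counts say nothing of the tissues as a whole. The filter also left out genes that are bright in cord and dim in motor neurons, so counts of falls miss these. Grp, of the peptide list, read 2305, 2215 and 2077 in cord and 25.5, 10.2 and 12.1 in motor neurons and was not tested. Without a filter 6647 probe sets were called higher and 13771 lower.

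Agreement between probe sets of a gene limited how firmly single genes can be read. Among 6010 genes with at least 2 tested probe sets, every probe set rose in 449 (7.47%) and every one fell in 376 (6.26%), while 1291 (21.5%) were called higher on 1 probe set and lower on another. The median range of log2 changes within a gene was 1.36. Where the brightest probe set rose (2112 genes), the next brightest rose in 777 and was called lower in 573. Where the brightest fell (799 genes), the next brightest fell in 462 and was called higher in 21. Among genes called both ways, the brightest probe set was higher in 1023 and lower in 166; with the probe set brightest in cord instead, it was higher in 771 and lower in 385. Of the 77 genes named here that have at least 2 tested probe sets, 10 were called both ways, as stated where each is described. Some named genes also lay near background: in motor neurons Col3a1, Ctsc, Hoxb9, Hoxd1, Htr1a, Pcsk1, Sema3b, Syt5, Syt9 and Zic1 passed it on 1 array and Ebf3, Fxyd6, Gad2, Hoxa3, Ntn1, Scn3b, Tac1 and Tnc on 2, and in cord Cd7, Gnmt and Sim1 passed it on 1 array and Apoa2 and Saa1 on 2.

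**Figure D5:**
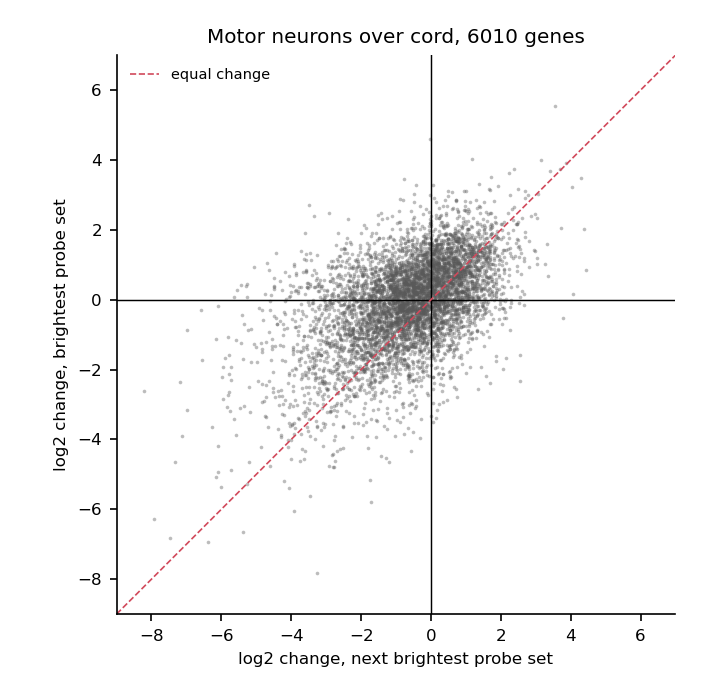
Log2 change, motor neurons over cord, of the brightest probe set of a gene (vertical) against that of the next brightest (horizontal), 1 point for each of 6010 genes; the dashed line marks equal change. Many points lie above the line at the left, where the next brightest probe set was lower and the brightest was not.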

How the data were processed

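Labelled RNA of 9 samples was hybridised to one design of mouse oligonucleotide array. The values used are the intensities that the authors deposited, 1 per probe set and array on a linear scale; on every array they have a trimmed mean of 2500 when the highest and lowest 2% are dropped. The sources used here do not name the array software. Groups were read from the sample descriptions: 3 arrays of wild-type motor neurons and 3 of wild-type cord.

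From these intensities, the 64 control probe sets were left out, 20.3 (the 10th percentile) was added, log2 was taken, and limma 3.58.1 in R 4.3.3 was fitted to the 6 arrays by lmFit, then eBayes (two-sided, trend on intensity), and Benjamini-Hochberg adjustment ran over the probe sets above the 40th percentile of the mean of the 3 group means of log2 values. The fit was tested on simulated data. The same fit was run on quantile-normalized and on median-centred values. Background is the 95th percentile, on each array, of 27 probe sets for Bacillus subtilis transcripts. Where a group lay below it on all 3 arrays, the fold is a bound against values raised to it. Of the probe sets, 34945 had 1 gene in the platform annotation, 932 several and 9160 none; only the first kind was named, and 18032 of 18194 gene identifiers matched RefSeq. Genes named are the 4 markers, the 12 largest rises and falls among genes whose probe sets all agreed, and up to 3 rises and 3 falls of each list, with exceptions stated. The members and the lists were chosen with earlier results of these data known. Tables and figures were made with Python 3.11.15, pandas 2.3.3 and matplotlib 3.10.9. The number of arrays limits the precision. Alternatives changed the scaling, pseudocount, filter, variance model, samples and the probe set that stands for a gene.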

Additional observations from a re-analysis of the deposited data

How the results depend on the processing

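The total of called probe sets ran from 13278 (filter at the 60th percentile) to 22258 (array weights), with 20418 without a filter. Scaling moved the split between directions. Centring gave 12942 probe sets higher and 5269 lower, and 7510 genes higher and 1989 lower, and it turned the median change of tested probe sets from -0.35 to 0.56; quantile normalization turned it to 0.13. Centring also turned Mbp (0.59) and Slc32a1 (0.16). A filter at the 60th percentile, which tests fewer probe sets, left 7214 lower. Leaving out 1 array at a time gave 15477 to 18336 called probe sets, 5851 to 6726 higher and 9626 to 11662 lower, and 3666 to 4201 genes higher and 4082 to 4874 lower. With the mean of all tested probe sets of a gene, Dnajb6 (-0.90), Gfra1 (-1.21), Glra1 (-2.41), Hoxa9 (-0.25), Hspe1 (-0.28) and Hsph1 (-0.23) turned. With the plain probe set, one whose identifier carries no letter code for shared or mixed targets, Hspe1 turned (-1.05), and with the probe set brightest in cord, added after the data were seen, Fgf9 did (-0.47). The cause was not tested. Of the 179 named genes that passed the filter, 156 kept direction and call under every alternative in which they were tested. The filter at the 60th percentile tested 140 of the 179. Same-numbered arrays did not deviate together (correlations of -0.00 to 0.03). With so few arrays, this cannot show whether same-numbered arrays share an animal, which the labels do not state. The replicate block gave 17333 probe sets, 6338 higher and 10995 lower, and changed 1 call among the named genes, Lhx3. One variance weight per group, also added later, gave 17462. Values near background limit the falls: 91 genes called lower were below it on all motor neuron arrays.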

Other observations

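Genes of the BCL2 family, which regulate cell death, and matrix genes give a further view of the captured cells. Of the BCL2 family 5 of 16 tested members rose and 0 fell, with a median log2 change of -0.45 as deposited and 0.43 after quantile normalization. Bnip3, a mitophagy receptor of that family, read 27278, 28920 and 27861 in cord and 76074, 71202 and 71095 in motor neurons (2.6-fold higher, limma adjusted p = 6.42e-07). Of the collagens 2 of 32 tested members rose and 19 fell, with a median of -1.84; Col1a2, a fibrillar collagen, read 45922, 20346 and 33326 in cord and 199, 610 and 458 in motor neurons and fell on both probe sets. Of laminins and integrins 4 of 25 tested members rose and 7 fell. Itga3, an integrin that binds laminin, read 1730, 1588 and 2034 in cord and 6856, 9358 and 7224 in motor neurons (4.32-fold higher, limma adjusted p = 5.51e-06) on its brightest probe set, while its other probe set changed by 0.33. Lamb1, a laminin chain, read 6255, 2526 and 4574 in cord and 97.3, 104 and 75.7 in motor neurons and was at least 26.3-fold lower (limma adjusted p = 2.99e-06). The genes that rose spanned a median of 22.3 kb of genome, those that fell 31.1 kb and all tested genes 24.1 kb, and their promoters held a median of 61%, 61.7% and 60.7% G and C. Both are descriptions over genes, which are not independent.

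The 3 arrays of SOD1-mutant motor neurons, which are outside the comparison, give the level, in other captured material, of transcripts best known from other tissues or from serotonin neurons. Ttr read 2952, 2855 and 2258, Spp2 1685, 1614 and 1574, Cd7 2428, 1327 and 2465, Gnmt 1540, 2057 and 1643, Pde6b 1222, 213 and 892 and Tph2 452, 397 and 381 on those arrays. Every one of these values is above the highest cord value of its gene. Genes dim in cord passed the filter only through the motor neuron arrays, the mutant ones included, so these values are no independent check. Saa1 read 110, 2306 and 1212, so its first mutant array lay below all 3 cord arrays.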
